A study of Mus musculus with 12 samples.

Results

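The citric acid cycle and mitochondrial beta-oxidation genes are 35 genes chosen by name, of which 33 were among the 11035 genes of the count table and 32 had enough counts to be tested. They comprise 13 genes of the cycle, 4 of pyruvate entry and 18 of beta-oxidation. Suclg2, a subunit of succinyl-CoA synthetase, and Acat1, a thiolase, were not analysed here, and Ogdh, with 1 to 7 counts a library, was not tested. The cells were mouse 3T3-L1, embryo-derived fibroblasts that hormones turn into fat cells, and their RNA was measured by MARS-seq, which counts unique molecules at the 3′ ends of transcripts. There were 4 groups of 3 libraries, and the 3T3-L1 cells themselves were labelled WT in every group. KO_CM cells were differentiated in medium mixed with equal parts of filtered conditioned medium from WEA breast cancer cells in which p53 was knocked out. WT_CM cells were differentiated in the same way with medium of WEA cells with p53 intact. The regular_diff cells were differentiated without conditioned medium, with IBMX, dexamethasone, insulin and rosiglitazone, then insulin, then maintenance medium. The WT_CM and KO_CM cells got the same inducers at the same doses, then insulin for the same time. The preadipocyte cells were undifferentiated and were kept in calf serum, whereas the differentiated cells were kept in fetal bovine serum. The labels do not say whether the p53 knockout line was 1 clone, nor on which day RNA was taken.

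The citric acid cycle oxidises acetyl-CoA in the mitochondrial matrix and passes the electrons to the respiratory chain. Its acetyl-CoA comes from pyruvate through pyruvate dehydrogenase, or from fatty acids, which enter through the carnitine palmitoyltransferases and are shortened step by step by beta-oxidation. In fat cells, citrate from the cycle also leaves the mitochondrion to feed fatty acid synthesis, and pyruvate carboxylase replaces the oxaloacetate that this drains.

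Total counts ranged from 669007 to 1132099 in KO_CM, 1758814 to 2025317 in WT_CM, 1387854 to 1801316 in regular_diff and 1458452 to 1836626 in preadipocyte libraries. Preadipocyte replicate 5 and KO_CM replicate 1 stood apart from their groups over all genes. The summed level of 5 adipocyte markers was 6390.3 to 8955 CPM (counts scaled to the size of each library) in KO_CM, 24966 to 26233 in WT_CM, 26829.7 to 28912 in regular_diff and 53.05 to 455 in preadipocyte libraries, with preadipocyte replicate 5 at the top of that last range. The sum of 6 preadipocyte and fibroblast markers was 1109 to 1582 CPM in KO_CM, 641 to 660.2 in WT_CM, 402 to 439 in regular_diff and 1049.6 to 1499 in preadipocyte libraries. Much of the step from regular_diff to WT_CM was Ly6a, with 517, 469 and 440 counts in WT_CM and 119, 101 and 114 in regular_diff. Its log2 fold change of 1.89 was not called by the edgeR test used below. In that comparison Thy1 was called higher, Pdgfrb and Dlk1 lower, and Col1a1 and Pdgfra neither. In KO_CM against regular_diff all but Ly6a were called higher. The WT_CM sum therefore does not show these markers higher as a set. Few markers of other cell types were measured: 3 of 8 epithelial, 2 of 6 macrophage and 0 of 4 endothelial markers were in the table, and their sums reached at most 52.8 CPM. Of 6 brown fat markers 3 were in the table, with a sum of 11.8 to 28.0 CPM in KO_CM, 70.9 to 88.5 in WT_CM, 159 to 214 in regular_diff and 1.00 to 3.89 in preadipocyte libraries; Ucp1, Cidea and Dio2 were not analysed here. Whether the 3 libraries of a group are separate cultures is not stated in the labels, so p-values reflect the spread among these libraries alone and that spread may be technical.

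The 33 measured genes together took 0.682% of the counts in KO_CM, 1.06% in WT_CM, 1.38% in regular_diff and 0.456% in preadipocyte libraries (means, n = 3 each). The same order held in each role. The cycle genes summed to 3132 ± 85.7 CPM in KO_CM, 4743 ± 67.9 in WT_CM, 6276 ± 63.6 in regular_diff and 2175 ± 55.5 in preadipocyte libraries (SD, n = 3 each). The pyruvate entry genes summed to 596 ± 42.1 CPM in KO_CM, 1169.7 ± 82.8 in WT_CM, 1807 ± 26.5 in regular_diff and 235 ± 19.9 in preadipocyte libraries. The beta-oxidation genes summed to 3049 ± 51.2 CPM in KO_CM, 5094 ± 129 in WT_CM, 6406 ± 24.99 in regular_diff and 1878 ± 61.4 in preadipocyte libraries. In none of the 3 roles did the libraries of different groups overlap. Relative to regular_diff, the sum of all members was 0.468 in KO_CM and 0.760 in WT_CM, and that of the adipocyte markers 0.282 in KO_CM and 0.926 in WT_CM. The marker sum is made up mostly of Fabp4, a fatty acid binding protein, which in WT_CM against regular_diff had a log2 fold change of 0.19 ± 0.63. In the same comparison the adipokine Adipoq (-0.44 ± 0.60) and the lipid droplet gene Cidec (-0.77 ± 0.35) stood at 0.739 and 0.587 of regular_diff, with every WT_CM library below every regular_diff library, and the lipid droplet coat gene Plin1 was at 0.01 ± 0.11. None of these 4 was called in WT_CM against regular_diff, whereas Adipoq, Cidec and Plin1 were called lower in KO_CM against regular_diff. Each SE draws on the gene's spread in all 12 libraries. Preadipocyte replicate 5 had 564 counts of Fabp4, 129 of Adipoq and 37 of Cidec, where the other preadipocyte libraries had 86 and 94, 13 and 11, and 5 and 6. The lack of a call in WT_CM therefore does not show that Fabp4, Adipoq and Cidec were level. The brown fat marker sum was 0.120 of regular_diff in KO_CM and 0.440 in WT_CM, and its 2 tested genes, Cox7a1 and Cox8b, which encode subunits of cytochrome c oxidase, fell in KO_CM against regular_diff, in WT_CM against regular_diff and in KO_CM against WT_CM. Both marker sums fell with the members in KO_CM against regular_diff. In WT_CM against regular_diff the tested brown fat genes fell too, whereas the adipocyte genes were mixed and none was called. The part of these markers in the result was not tested. In bulk RNA, fewer fat cells and less RNA per fat cell cannot be told apart.

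**Figure D1:**
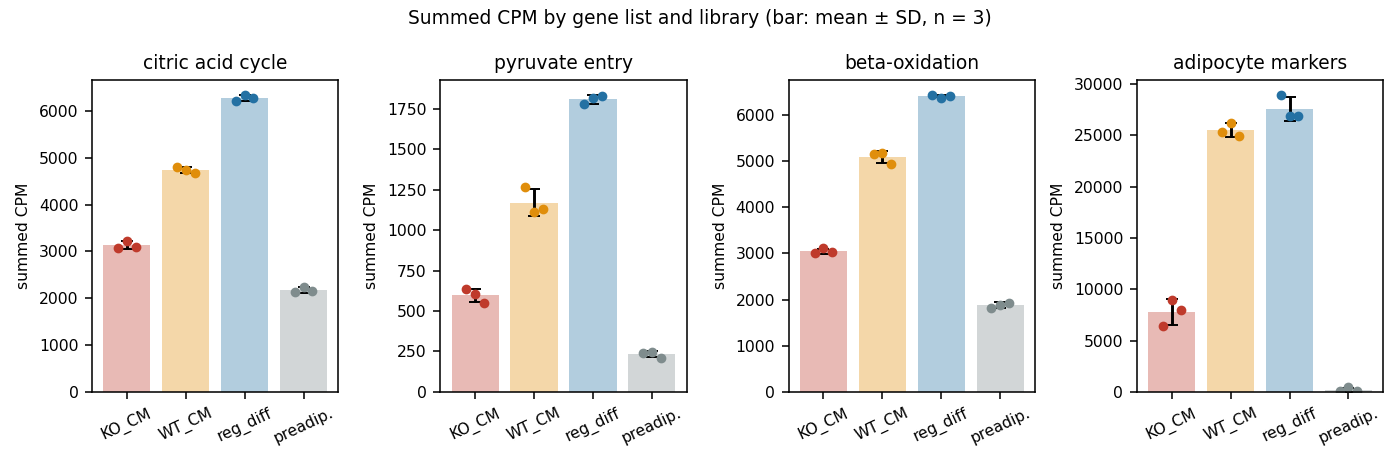
Summed CPM (vertical axis, from 0) of the cycle, pyruvate entry and beta-oxidation genes and of 5 adipocyte markers in each group; points are libraries, bars the mean and whiskers the SD, n = 3. All 3 roles stand highest in regular_diff, then WT_CM, then KO_CM, and the adipocyte markers average 25505 CPM in WT_CM and 27553 CPM in regular_diff.

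Differentiation was examined first, as regular_diff against preadipocyte libraries. Of the 32 tested members, 30 rose and 1 fell at an adjusted p under 0.05 (quasi-likelihood test of edgeR, Benjamini-Hochberg adjusted over 9519 genes), where 51.2% of all tested genes were called, 24.8% higher and 26.4% lower (20% and 33.8% with scaling by library size). The median log2 fold change of the members was 1.65, against -0.06 over all genes tested. All 11 tested cycle genes rose with a median of 1.53, all 4 pyruvate entry genes with a median of 2.29, and 15 of 17 beta-oxidation genes rose, with a median of 1.69 over the 17. The groups also differ in serum, and serum and the inducers cannot be told apart.

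In the cycle, the largest rise was that of Idh3a, the catalytic subunit of the NAD-dependent isocitrate dehydrogenase. Idh3a had 547, 549.9 and 616 CPM in regular_diff libraries, against 79.1, 73.4 and 71.3 CPM in preadipocyte libraries. The groups lay far apart, a log2 fold change of 2.93 ± 0.11 (SE, n = 3 each). Its partner subunits Idh3b and Idh3g rose by 1.73 ± 0.10 and 1.70 ± 0.12. Citrate synthase, Cs, which joins acetyl-CoA to oxaloacetate, rose by 1.88 ± 0.11, and the malate dehydrogenase Mdh2 by 1.55 ± 0.10. Dld, the lipoamide dehydrogenase shared by the pyruvate and oxoglutarate complexes, rose by 1.53 ± 0.12, and Dlst, the succinyltransferase of the oxoglutarate complex, by 0.94 ± 0.12. The succinyl-CoA synthetase subunits Suclg1 and Sucla2 rose by 1.501 ± 0.10 and 1.15 ± 0.12. Fh1, the fumarase, had 392, 433 and 416 CPM in regular_diff libraries, against 143, 143 and 145 CPM in preadipocyte libraries, with no overlap and a log2 fold change of 1.53 ± 0.11.

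The smallest change in the cycle was that of Idh2, the mitochondrial NADP-dependent isocitrate dehydrogenase, which makes NADPH outside the main route of the cycle. Idh2 had 334, 364 and 401 CPM in regular_diff libraries, against 289.8, 309 and 281 CPM in preadipocyte libraries. The groups did not overlap but came close, and the rise of 0.32 ± 0.11 had an adjusted p of 0.0151 (quasi-likelihood test of edgeR, Benjamini-Hochberg). That call was lost when libraries were scaled by total count alone (0.17, adjusted p of 0.211), without preadipocyte replicate 6 (0.29, 0.0617) and without regular_diff replicate 6 (0.24, 0.114).

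At pyruvate entry, Pcx changed more than any other member in this comparison. Pcx, pyruvate carboxylase, had 1052, 1118 and 1121 CPM in regular_diff libraries, against 42.0, 37.9 and 42.2 CPM in preadipocyte libraries. Every regular_diff library was far above every preadipocyte library, and the log2 fold change was 4.75 ± 0.15, or 26.9-fold. RefSeq gives Pcx 2 start sites on chromosome 19, and counts at the 3′ end do not separate transcripts from them. The windows from 250 bases before to 50 after each start are shown because no other member moved as far; capitals mark GC boxes (GGGCGG on either strand), of which the upstream window holds 2 and the downstream window none.
Pcx upstream start, plus strand, GRCm38.p6 chr19:4510222-4510521: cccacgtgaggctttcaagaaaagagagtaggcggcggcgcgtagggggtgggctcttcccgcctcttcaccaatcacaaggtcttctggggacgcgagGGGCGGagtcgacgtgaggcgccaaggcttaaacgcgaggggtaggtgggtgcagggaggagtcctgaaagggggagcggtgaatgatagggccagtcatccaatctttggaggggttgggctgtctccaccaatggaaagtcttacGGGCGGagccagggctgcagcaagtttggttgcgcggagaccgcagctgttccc
Pcx downstream start, plus strand, GRCm38.p6 chr19:4594069-4594368: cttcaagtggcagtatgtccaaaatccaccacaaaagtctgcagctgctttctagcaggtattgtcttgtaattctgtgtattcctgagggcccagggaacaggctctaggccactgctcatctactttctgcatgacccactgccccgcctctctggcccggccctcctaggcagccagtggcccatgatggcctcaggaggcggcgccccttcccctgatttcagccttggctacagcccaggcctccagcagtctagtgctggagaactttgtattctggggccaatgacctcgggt

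Pyruvate dehydrogenase rose less than Pcx, and unevenly between its subunits. Pdhb, the beta subunit of its first enzyme, had 467, 461 and 448 CPM in regular_diff libraries, against 66.6, 75.2 and 54.5 CPM in preadipocyte libraries, a log2 fold change of 2.81 ± 0.13. Pdha1, the alpha subunit that carries the sites of regulatory phosphorylation, had 245, 226 and 248 CPM in regular_diff libraries, against 130.1, 132 and 113 CPM in preadipocyte libraries, a log2 fold change of 0.94 ± 0.12. Neither pair of groups overlapped. Dlat, the acetyltransferase core of the complex, had 17 to 23 counts in regular_diff and 3 to 8 in preadipocyte libraries and rose by 1.78 ± 0.43. Of the 3′ end of Pdhb, 24.8% of the stretches searched also occurred in other genes, and the 3′ end of Pdha1 overlaps an exon of Map3k15 on the other strand, so their counts are less certain.

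In beta-oxidation the 4 acyl-CoA dehydrogenases, which take the first step for chains of falling length, all rose. Acadm, for medium chains, had 798, 785 and 797 CPM in regular_diff libraries, against 86.1, 70.9 and 87.6 CPM in preadipocyte libraries. This is a log2 fold change of 3.28 ± 0.13, with no overlap. The rises were 2.40 ± 0.10 for Acadvl (very long chains), 1.84 ± 0.11 for Acads (short chains) and 0.95 ± 0.11 for Acadl (long chains). The Acadm promoter window is shown because Acadm rose most among the beta-oxidation genes and is 1 of 2 members whose window holds AAGGTCA, the core site bound by nuclear receptors such as the oestrogen-related receptors; capitals mark it, on the reverse strand.
Acadm, minus strand, GRCm38.p6 chr3:153944594-153944893: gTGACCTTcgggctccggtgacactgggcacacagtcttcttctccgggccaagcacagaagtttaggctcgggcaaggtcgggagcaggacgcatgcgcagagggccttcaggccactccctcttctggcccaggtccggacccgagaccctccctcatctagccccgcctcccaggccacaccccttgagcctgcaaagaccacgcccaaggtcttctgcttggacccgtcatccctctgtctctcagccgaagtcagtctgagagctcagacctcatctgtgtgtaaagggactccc

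The later steps rose too. Echs1, the short-chain enoyl-CoA hydratase, rose by 2.51 ± 0.12, Hadh, the short-chain hydroxyacyl-CoA dehydrogenase, by 1.81 ± 0.11, and Acaa2, the medium-chain thiolase, by 1.35 ± 0.13. Etfa, Etfb and Etfdh, which carry electrons from the dehydrogenases to coenzyme Q, rose by 1.92 ± 0.10, 1.69 ± 0.10 and 1.61 ± 0.13. Counts of Etfa, Etfb and Eci2 are less certain, since 14%, 54.4% and 18.1% of the stretches searched at their 3′ ends occur in other genes, and so are those of Acadvl, whose 3′ end overlaps an exon of Dvl2 on the other strand. Among the auxiliary enzymes for unsaturated chains, the isomerase Eci1 had 377, 366 and 365 CPM in regular_diff libraries, against 123, 135 and 127 CPM in preadipocyte libraries, a log2 fold change of 1.53 ± 0.10 with no overlap. Decr1, the dienoyl-CoA reductase, had 29, 21 and 25 counts in regular_diff libraries, against 11, 9 and 10 counts in preadipocyte libraries, and rose by 1.44 ± 0.31. The isomerase Eci2, looked at after its values were seen, had 272, 281 and 289 CPM in regular_diff libraries, against 155, 111 and 190.0 CPM in preadipocyte libraries. Those groups did not overlap, but the difference of 0.89 ± 0.33 missed the threshold (adjusted p of 0.0516, quasi-likelihood test of edgeR, Benjamini-Hochberg). Without KO_CM replicate 1, whose Eci2 level of 61.6 CPM lies far below the 181 and 199 CPM of the other KO_CM libraries, the same difference had an adjusted p of 1.45e-06.

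Carnitine shuttle genes went opposite ways. Cpt1a, the outer membrane carnitine palmitoyltransferase that sets the rate of fatty acid entry in liver and many other tissues, was the 1 member that fell. Cpt1a had 26.1, 28.6 and 22.1 CPM in regular_diff libraries, against 75.6, 80.8 and 77.8 CPM in preadipocyte libraries. With no overlap, the log2 fold change was -1.61 ± 0.16. Cpt2, the inner membrane enzyme that follows it, rose by 2.22 ± 0.17. Cpt1b, the muscle form of the outer membrane enzyme, was not analysed here. The Cpt1a promoter window is shown because its changes ran against those of most other members in each of the 4 main comparisons; capitals mark 3 GC boxes, all on the reverse strand.
Cpt1a, plus strand, GRCm38.p6 chr19:3323051-3323350: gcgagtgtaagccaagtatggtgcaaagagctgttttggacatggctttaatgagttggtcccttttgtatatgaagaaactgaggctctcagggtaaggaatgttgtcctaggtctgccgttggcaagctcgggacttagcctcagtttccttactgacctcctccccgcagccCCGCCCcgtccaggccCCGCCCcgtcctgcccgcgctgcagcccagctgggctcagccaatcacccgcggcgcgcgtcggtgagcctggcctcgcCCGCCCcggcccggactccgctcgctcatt

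The trifunctional protein, which takes long chains through the last 3 steps of a round, is made of the products of Hadha and Hadhb. Hadha had 394, 345 and 361 CPM in regular_diff libraries, against 146, 157 and 160.2 CPM in preadipocyte libraries, a log2 fold change of 1.25 ± 0.13. Hadhb had 315, 326 and 382 CPM in regular_diff libraries, against 63.6, 44.1 and 53.2 CPM in preadipocyte libraries, a log2 fold change of 2.66 ± 0.15. The genes are neighbours on chromosome 5 that point away from each other, and in RefSeq their start sites, at 30154980 for Hadha and 30155253 for Hadhb, have 272 bases between them. The stretch common to both promoter windows is shown because the genes share it while their log2 fold changes differ; capitals mark its 1 GC box.
Hadha-Hadhb shared window, plus strand, GRCm38.p6 chr5:30155003-30155230: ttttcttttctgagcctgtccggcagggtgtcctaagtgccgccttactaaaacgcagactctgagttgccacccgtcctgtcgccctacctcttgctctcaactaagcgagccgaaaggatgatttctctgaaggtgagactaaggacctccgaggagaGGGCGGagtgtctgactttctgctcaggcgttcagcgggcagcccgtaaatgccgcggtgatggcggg

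**Figure D2:**
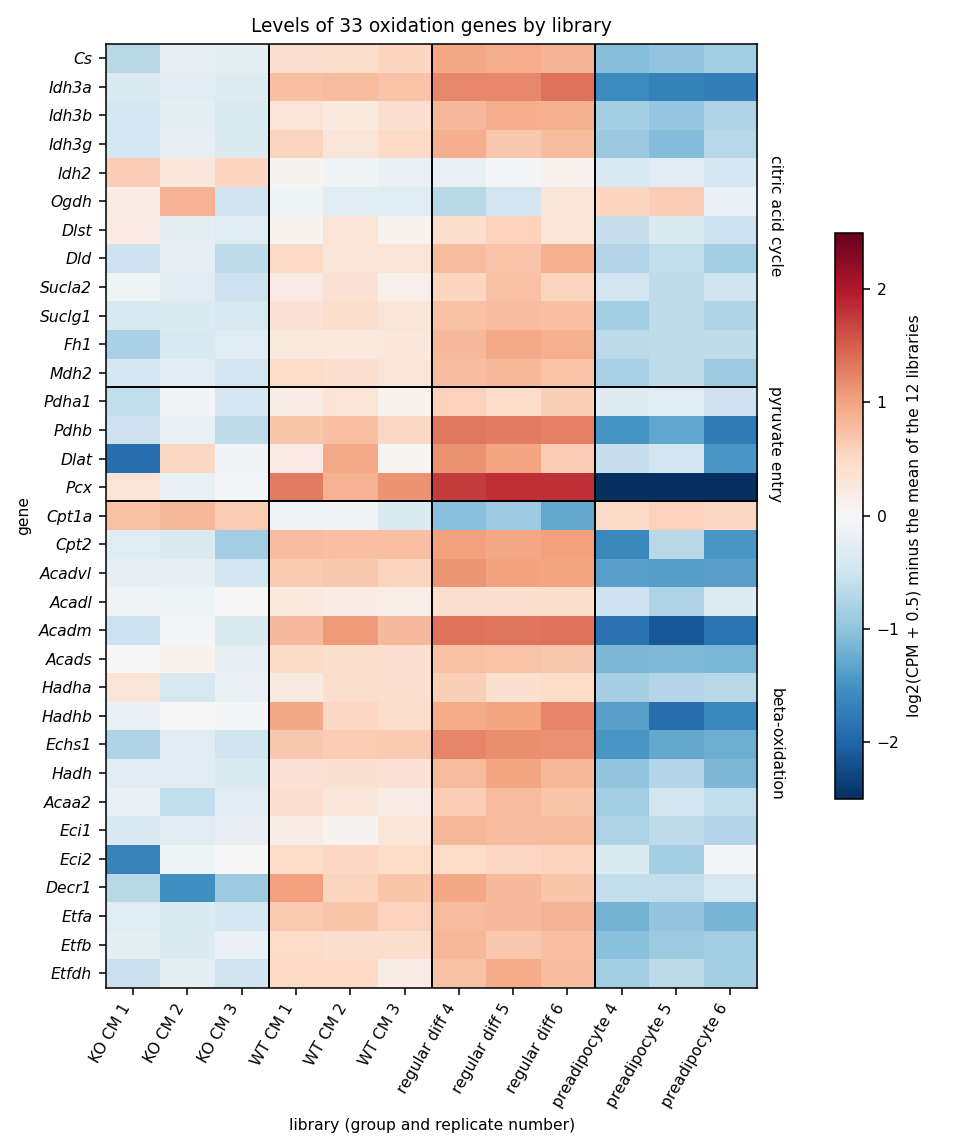
Levels of the 33 measured members in the 12 libraries, as log2(CPM + 0.5) minus the gene's mean over the libraries; rows are genes by role and columns are libraries by group. Most rows are highest in regular_diff and lowest in preadipocyte libraries. Ogdh and Cpt1a run against that pattern, Idh2 averages highest in KO_CM, and Eci2 and Decr1 average lowest in KO_CM.

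Medium conditioned by p53 WT cancer cells was compared with regular differentiation next. In WT_CM against regular_diff, 1 of the 32 tested members rose and 19 fell (quasi-likelihood test of edgeR, adjusted p under 0.05), where 9.91% of all tested genes were called, 5.73% higher and 4.18% lower. The members' median log2 fold change was -0.39, against -0.01 over all genes. Of the cycle genes 9 of 11 fell, of pyruvate entry 2 of 4, and of beta-oxidation 8 of 17, with medians of -0.39, -0.57 and -0.31. No member was called at a change of 2-fold or more. Without WT_CM replicate 3 the number called was 11 in place of 20, and 10 of the 20 were called under every alternative run, namely Cpt1a, Echs1, Eci1, Fh1, Hadh, Idh3a, Idh3b, Pcx, Pdhb and Suclg1. A mix with medium that no cells had conditioned was not among the groups, so in comparisons with regular_diff the effects of diluted or spent medium and those of cancer cell products cannot be told apart, and the same goes for any difference between replicates numbered 1 to 3 in the conditioned groups and 4 to 6 in the other groups.

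The largest falls in each role were of similar size. Fh1 had 264, 266 and 268 CPM in WT_CM libraries, against 392, 433 and 416 CPM in regular_diff libraries, a log2 fold change of -0.63 ± 0.11. Pcx had 770.2, 576 and 684 CPM in WT_CM libraries, against 1052, 1118 and 1121 CPM in regular_diff libraries, a log2 fold change of -0.70 ± 0.12. Eci1 had 239, 220.3 and 260.4 CPM in WT_CM libraries, against 377, 366 and 365 CPM in regular_diff libraries, a log2 fold change of -0.62 ± 0.10. In all 3 the WT_CM libraries lay below every regular_diff library. Idh3a fell by 0.50 ± 0.09 on the log2 scale, Idh3b by 0.54 ± 0.10, Pdhb by 0.63 ± 0.11, and Echs1 and Hadh by 0.52 ± 0.11 and 0.51 ± 0.10. Idh2 had 398, 355 and 336 CPM in WT_CM libraries, against 334, 364 and 401 CPM in regular_diff libraries. The groups overlapped fully and the difference was -0.01 ± 0.11.

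Cpt1a again ran the other way. Cpt1a had 51.2, 51.7 and 42.6 CPM in WT_CM libraries, against 26.1, 28.6 and 22.1 CPM in regular_diff libraries, with no overlap. It was higher by 0.93 ± 0.16, an adjusted p of 0.000228 (quasi-likelihood test of edgeR, Benjamini-Hochberg). Pdha1 had 186, 207 and 173 CPM in WT_CM libraries, against 245, 226 and 248 CPM in regular_diff libraries, and its difference of -0.34 ± 0.12 had an adjusted p of 0.0720. By the same test it was called with only the 6 libraries compared (0.00525) and without preadipocyte replicate 5 (0.0373), KO_CM replicate 1 (0.0388), KO_CM replicate 2 (0.0376), or preadipocyte replicate 5 and KO_CM replicate 1 together (0.00917). Decr1 had 36, 22 and 25 counts in WT_CM libraries, against 29, 21 and 25 counts in regular_diff libraries, which overlapped. Eci2 also overlapped, with 272, 283 and 271 CPM in WT_CM and 272, 281 and 289 CPM in regular_diff libraries.

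Medium conditioned by p53 KO cancer cells gave more and larger differences from regular_diff. In KO_CM against regular_diff, 2 of the 32 tested members rose and 28 fell (quasi-likelihood test of edgeR, adjusted p under 0.05), where 34.6% of all tested genes were called, 17.2% higher and 17.3% lower. The members' median log2 fold change was -1.14, against -0.00 over all genes, and 23 members were called with a change of at least 2-fold. Medians were -1.16 for the cycle, -1.39 for pyruvate entry and -1.11 for beta-oxidation. All 30 calls held under every alternative run. The limits on medium and replicate numbers given for WT_CM hold here too.

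In the cycle 10 of 11 genes fell. Idh3a had 185, 196 and 190.5 CPM in KO_CM libraries, against 547, 549.9 and 616 CPM in regular_diff libraries, a log2 fold change of -1.58 ± 0.10. Fh1 had 127, 171 and 182 CPM in KO_CM libraries, against 392, 433 and 416 CPM in regular_diff libraries, a log2 fold change of -1.37 ± 0.12. Neither gene's groups overlapped. Cs fell by 1.27 ± 0.11 on the log2 scale, Dld by 1.22 ± 0.12, Idh3b by 1.21 ± 0.10, Mdh2 by 1.16 ± 0.10, Suclg1 by 1.13 ± 0.10, Idh3g by 1.12 ± 0.12, Sucla2 by 0.90 ± 0.13 and Dlst by 0.54 ± 0.13.

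Idh2 was the cycle gene that rose. Idh2 had 579, 454 and 547 CPM in KO_CM libraries, against 334, 364 and 401 CPM in regular_diff libraries, with no overlap and a log2 fold change of 0.52 ± 0.11. The 2 mitochondrial isocitrate dehydrogenases, NAD-dependent (Idh3a, Idh3b, Idh3g) and NADP-dependent (Idh2), thus went in opposite directions in KO_CM cells. The Idh2 promoter window is shown for that reason; capitals mark its 2 GC boxes, of which the second is on the reverse strand.
Idh2, minus strand, GRCm38.p6 chr7:80115301-80115600: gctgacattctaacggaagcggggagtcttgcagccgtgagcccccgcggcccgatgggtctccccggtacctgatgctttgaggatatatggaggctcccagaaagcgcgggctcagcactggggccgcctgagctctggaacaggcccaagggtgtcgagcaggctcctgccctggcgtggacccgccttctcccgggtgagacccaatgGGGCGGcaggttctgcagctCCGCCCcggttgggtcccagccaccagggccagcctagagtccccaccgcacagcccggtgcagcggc

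At pyruvate entry 3 of 4 genes fell. Pcx had 397, 275 and 305 CPM in KO_CM libraries, against 1052, 1118 and 1121 CPM in regular_diff libraries, a log2 fold change of -1.76 ± 0.12. Pdhb had 129.7, 163 and 120.2 CPM in KO_CM libraries, against 467, 461 and 448 CPM in regular_diff libraries, a log2 fold change of -1.72 ± 0.13. Pdha1 had 106, 156 and 120.2 CPM in KO_CM libraries, against 245, 226 and 248 CPM in regular_diff libraries, a log2 fold change of -0.89 ± 0.13. None of these groups overlapped. Dlat, with 1 to 10 counts in KO_CM and 17 to 23 in regular_diff libraries, differed by -1.05 ± 0.46 and was not called. Without KO_CM replicate 2 it differed by -1.76 ± 0.62 and was called (adjusted p of 0.0329, quasi-likelihood test of edgeR).

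In beta-oxidation 15 of 17 genes fell. Decr1 had 4, 3 and 3 counts in KO_CM libraries, against 29, 21 and 25 counts in regular_diff libraries, a log2 fold change of -1.999 ± 0.40 that rests on few counts. Echs1 fell by 1.67 ± 0.12 on the log2 scale, and Cpt2 by 1.48 ± 0.17. Acadm had 214, 299 and 242 CPM in KO_CM libraries, against 798, 785 and 797 CPM in regular_diff libraries, a log2 fold change of -1.65 ± 0.12 with no overlap. The other acyl-CoA dehydrogenases fell by 1.32 ± 0.10 (Acadvl), 0.73 ± 0.11 (Acads) and 0.49 ± 0.11 (Acadl). The electron carriers Etfa, Etfb and Etfdh fell by 1.17 ± 0.10, 1.01 ± 0.10 and 1.23 ± 0.14, and the trifunctional protein genes Hadha and Hadhb by 0.55 ± 0.13 and 1.11 ± 0.14.

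Cpt1a was the beta-oxidation gene that rose. Cpt1a had 90.4, 97.5 and 85.0 CPM in KO_CM libraries, against 26.1, 28.6 and 22.1 CPM in regular_diff libraries, with no overlap. The log2 fold change was 1.85 ± 0.17, or 3.59-fold. Eci2 had 61.6, 181 and 199 CPM in KO_CM libraries, against 272, 281 and 289 CPM in regular_diff libraries, and its difference of -0.92 ± 0.35 missed the threshold (adjusted p of 0.0744, quasi-likelihood test of edgeR, Benjamini-Hochberg). Without KO_CM replicate 1 the difference was -0.57 ± 0.15, at an adjusted p of 0.00465.

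**Figure D3:**
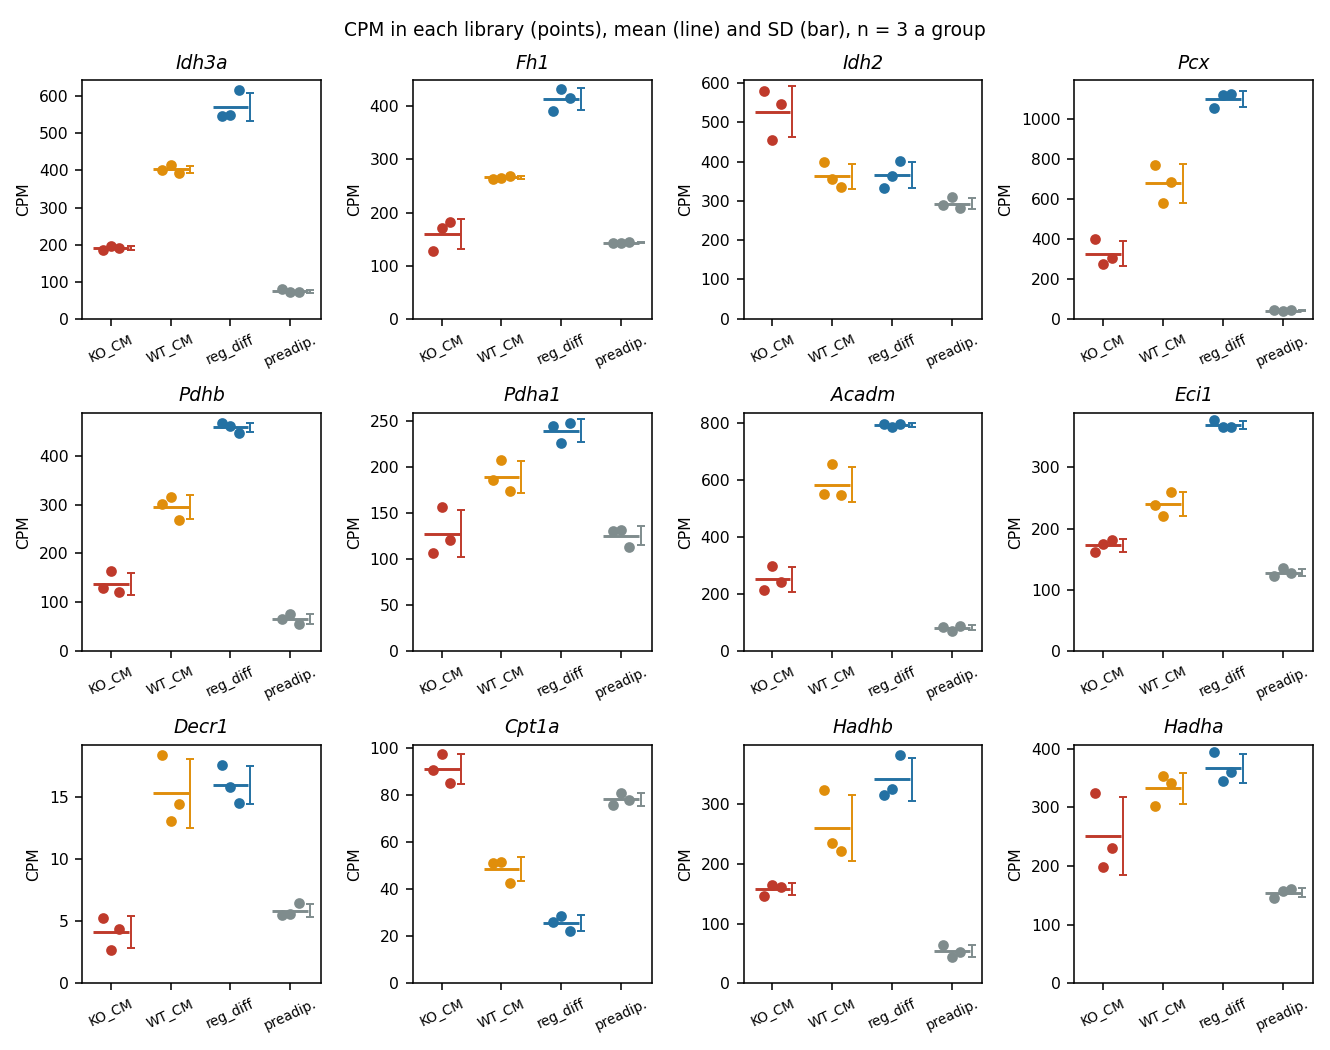
CPM of 12 members in each library (points) with the group mean (line) and SD (bar), n = 3 a group; each vertical axis starts at 0. Idh3a, Fh1, Pcx, Pdhb, Acadm and Eci1 fall in steps across regular_diff, WT_CM and KO_CM, Pdha1 is called lower than regular_diff in KO_CM but not in WT_CM, while Cpt1a rises across the same steps and Idh2 is highest in KO_CM.

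The p53 status of the cancer cells was addressed by setting KO_CM against WT_CM, in which both groups received conditioned medium and share replicate numbers. Of the 32 tested members, 2 rose and 26 fell (quasi-likelihood test of edgeR, adjusted p under 0.05), where 27.6% of all tested genes were called, 13.6% higher and 13.9% lower. The members' median log2 fold change was -0.74, against -0.01 over all genes. By role, 9 of 11 cycle genes, 3 of 4 pyruvate entry genes and 14 of 17 beta-oxidation genes fell, with medians of -0.74, -0.81 and -0.72. The adipocyte markers summed to 7768 ± 1293 CPM in KO_CM and 25505 ± 654 CPM in WT_CM libraries (SD, n = 3 each), and the KO_CM libraries held fewer counts, as given above. With all libraries thinned to the smallest total, 28 members were called, as many as without thinning. The part of the adipocyte markers in these differences was not tested.

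Idh3a had 185, 196 and 190.5 CPM in KO_CM libraries, against 401, 414 and 393 CPM in WT_CM libraries, a log2 fold change of -1.08 ± 0.10. Pdhb had 129.7, 163 and 120.2 CPM in KO_CM libraries, against 301, 316 and 268 CPM in WT_CM libraries, a log2 fold change of -1.09 ± 0.13. Acadm had 214, 299 and 242 CPM in KO_CM libraries, against 549, 655 and 548 CPM in WT_CM libraries, a log2 fold change of -1.21 ± 0.12. In these 3 genes the KO_CM level was 0.473, 0.471 and 0.433 of the WT_CM level, and the groups did not overlap. Pdha1 fell least at pyruvate entry among the called genes, with 106, 156 and 120.2 CPM in KO_CM libraries, against 186, 207 and 173 CPM in WT_CM libraries, a log2 fold change of -0.55 ± 0.13 with no overlap. Pcx fell by 1.06 ± 0.12 on the log2 scale, Cpt2 by 1.24 ± 0.17, Echs1 by 1.15 ± 0.12, Etfa by 1.00 ± 0.10 and Acadvl by 0.92 ± 0.10. Decr1, at 3 to 4 counts in KO_CM and 22 to 36 in WT_CM libraries, had a log2 fold change of -1.94 ± 0.40.

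Smaller falls were those of Eci1 (-0.47 ± 0.11), Acads (-0.46 ± 0.11) and Hadha (-0.41 ± 0.13). Hadha had 325, 199 and 230.0 CPM in KO_CM libraries, against 303, 353 and 342 CPM in WT_CM libraries, which overlapped through KO_CM replicate 1. Its call, at an adjusted p of 0.0194 (quasi-likelihood test of edgeR, Benjamini-Hochberg), was lost under library size scaling (0.0565), with only the 6 libraries compared (0.0604), and without WT_CM replicate 2 (0.105), WT_CM replicate 3 (0.0882), KO_CM replicate 2 (0.222) or KO_CM replicate 3 (0.115). Its log2 fold change lay between -0.41 and -0.33 in these cases, except for -0.23 ± 0.13 without KO_CM replicate 2. Not called were Acadl (-0.27 ± 0.11), Dlst (-0.26 ± 0.13), Dlat (-0.56 ± 0.48) and Eci2 (-0.89 ± 0.35). Without KO_CM replicate 1, Eci2 (-0.54 ± 0.15, adjusted p of 0.00920) and Dlst (-0.44 ± 0.13, 0.0119) were called by the same test.

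Both exceptions rose in KO_CM. Idh2 had 579, 454 and 547 CPM in KO_CM libraries, against 398, 355 and 336 CPM in WT_CM libraries, a log2 fold change of 0.53 ± 0.11. Cpt1a had 90.4, 97.5 and 85.0 CPM in KO_CM libraries, against 51.2, 51.7 and 42.6 CPM in WT_CM libraries, a log2 fold change of 0.91 ± 0.15. In both genes every KO_CM library was above every WT_CM library, and both calls held under every alternative run.

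**Figure D4:**
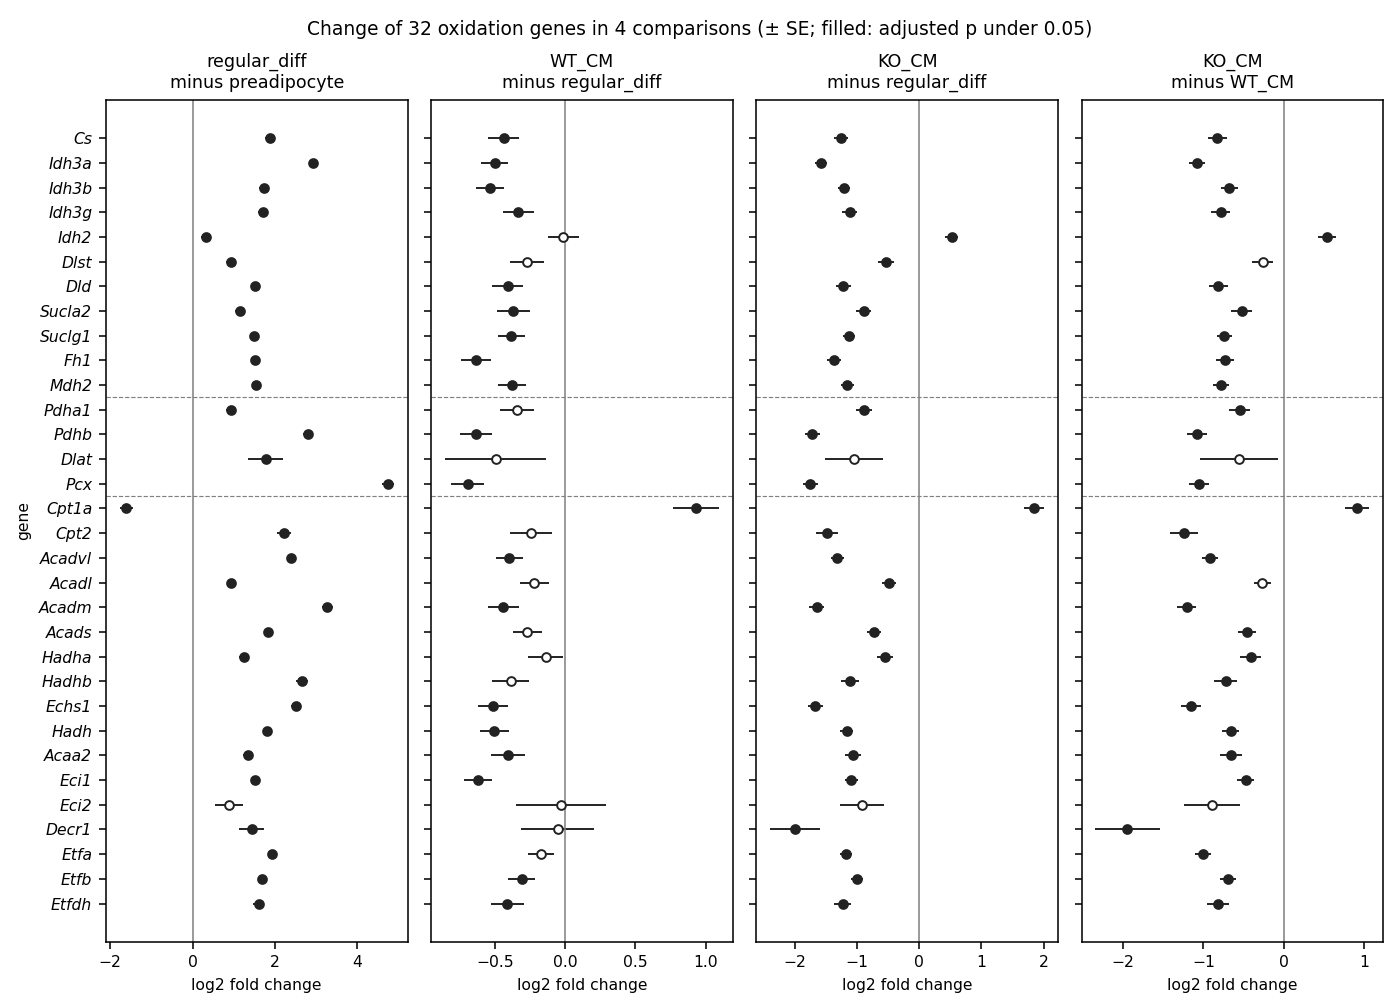
Log2 fold change (horizontal axis) of the 32 tested members in 4 comparisons, with bars of ± SE; filled points had an adjusted p under 0.05 by quasi-likelihood test of edgeR and the horizontal scales differ. Pcx reaches 4.75 under differentiation, Cpt1a stands alone on the side opposite to the other called members in WT_CM minus regular_diff, and Idh2 joins it in both KO_CM comparisons.

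KO_CM cells were also set against preadipocytes. Both conditioned groups differ from preadipocytes in serum, inducers, conditioned medium and replicate numbers at once, and these cannot be told apart. In KO_CM against preadipocyte, 22 members were higher and 0 lower at an adjusted p under 0.05 (quasi-likelihood test of edgeR), where 20.5% of all tested genes were called, 12.1% higher and 8.4% lower (10.5% and 12% with scaling by library size, 10.2% and 4.23% in DESeq2). The median was 0.60 over the members, 0.40 in the cycle, 0.90 at pyruvate entry and 0.69 in beta-oxidation. Pcx kept the largest difference at 2.99 ± 0.14, followed by Acadm at 1.63 ± 0.13, Hadhb at 1.55 ± 0.16 and Idh3a at 1.35 ± 0.11. Fh1 (0.16 ± 0.12), Pdha1 (0.04 ± 0.13), Sucla2 (0.26 ± 0.13), Dld (0.31 ± 0.13), Acaa2 (0.29 ± 0.14), Etfdh (0.38 ± 0.15), Cpt1a (0.23 ± 0.14), Decr1 (-0.56 ± 0.47), Dlat (0.72 ± 0.57) and Eci2 (-0.04 ± 0.35) were not called. Under some alternatives the calls on Cpt2 and Dlst were lost, and Acaa2, Dld and Etfdh were called. In WT_CM against preadipocyte, 30 members were higher and 1, Cpt1a, lower (-0.68 ± 0.14), where 47.1% of all tested genes were called, 23.1% higher and 24.1% lower (18.9% and 31.3% with scaling by library size).

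The group means of 28 of the 33 measured members ran in the order regular_diff, WT_CM, KO_CM, preadipocyte, high to low. In 14 of them each of the 3 neighbouring steps was called, namely Cs, Idh3a, Idh3b, Idh3g, Suclg1, Mdh2, Pdhb, Pcx, Acadvl, Acadm, Echs1, Hadh, Eci1 and Etfb. Without WT_CM replicate 3 it was 9, as Idh3g, Mdh2, Acadvl, Acadm and Etfb lost the step between WT_CM and regular_diff. For Idh3g that step was called in only 9 of 22 settings. In the other 14 of the 28, at least 1 pair of neighbours did not differ at the threshold. How many of all tested genes ran in this order was not counted, so the order cannot be called particular to the members. Eci2 and Decr1 departed from that order only in that KO_CM lay below preadipocyte, a step that was not called in either gene. Cpt1a ran KO_CM, preadipocyte, WT_CM, regular_diff, and its KO_CM and preadipocyte levels did not differ at the threshold. Idh2 was highest in KO_CM and lowest in preadipocyte libraries, with regular_diff and WT_CM level between them. Ogdh, the first enzyme of the oxoglutarate complex, had too few counts for its order to be read.

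Ratios between subunits and branches were compared over libraries with two-sided exact permutation tests, 12 in all, where 3 libraries against 3 cannot give a p below 0.1 and the smallest adjusted value was 0.171. The count ratio of Idh3b to Idh3a was 1.53, 1.61 and 1.44 in regular_diff libraries, against 3.36, 3.32 and 3.91 in preadipocyte libraries (exact p of 0.1). It was 1.91, 2.06 and 1.93 in KO_CM libraries, against 1.5, 1.37 and 1.61 in WT_CM libraries (exact p of 0.1). Neither pair of groups overlapped. Relative to regular_diff, this ratio was 1.29-fold in KO_CM, without overlap (exact p of 0.1), and 0.975-fold in WT_CM, with overlap (exact p of 0.6). The 3′ end of Idh3b overlaps an exon of Nop56 on the other strand.

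The ratio of Hadhb to Hadha was 0.800, 0.943 and 1.06 in regular_diff libraries, against 0.435, 0.281 and 0.332 in preadipocyte libraries, with no overlap (exact p of 0.1). It overlapped between KO_CM libraries, at 0.452, 0.832 and 0.701, and WT_CM libraries, at 1.07, 0.664 and 0.648 (exact p of 0.6). Both also overlapped with regular_diff, at 0.691-fold in KO_CM (exact p of 0.2) and 0.832-fold in WT_CM (exact p of 0.4). Of the 3′ end of Hadhb 38.9% of the stretches searched occur in other genes, and that of Hadha overlaps an exon of Garem2 on the other strand. The ratio of Pcx to Pdha1, the entries to oxaloacetate and to acetyl-CoA, was 4.30, 4.95 and 4.52 in regular_diff libraries, against 0.323, 0.288 and 0.371 in preadipocyte libraries (exact p of 0.1). The difference was 13.99-fold, the largest of the 12. In KO_CM libraries the Pcx to Pdha1 ratio was 3.74, 1.76 and 2.54, against 4.15, 2.78 and 3.95 in WT_CM libraries, which overlapped (exact p of 0.2). Both lay below regular_diff without overlap, at 0.557-fold in KO_CM and 0.779-fold in WT_CM (exact p of 0.1 each).

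Other genes of the same steps and their regulators were set beside the members in lists, of which the further cycle genes moved largely with the members. Most genes of the remaining lists were not called in WT_CM against regular_diff. These were 8 of 9 for pyruvate import and control, 14 of 18 for fatty acid activation and oxidation, and 10 of 12 regulators. The shares of all tested genes called, 51.2% in regular_diff against preadipocyte, 9.91% in WT_CM against regular_diff, 34.6% in KO_CM against regular_diff and 27.6% in KO_CM against WT_CM, are the background for each of these lists. All 10 further cycle genes rose in regular_diff against preadipocyte libraries (quasi-likelihood test of edgeR, adjusted p under 0.05). They included the cytosolic malate dehydrogenase Mdh1 by 2.83 ± 0.17, the cytosolic aconitase Aco1 by 2.54 ± 0.12 and the malic enzyme Me1 by 2.22 ± 0.13. Of these 10, 7 fell in WT_CM against regular_diff, among them Me1 (-0.66 ± 0.12) and the succinate dehydrogenase subunits Sdhb (-0.54 ± 0.10) and Sdha (-0.49 ± 0.10). In KO_CM, 9 of the 10 fell against regular_diff and 9 against WT_CM, Mdh1 by 1.85 ± 0.16 and 1.46 ± 0.16 on the log2 scale.

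Among 9 tested genes that import pyruvate or control pyruvate dehydrogenase, 6 rose and 1 fell in regular_diff against preadipocyte libraries by the same test. Mpc2, a subunit of the mitochondrial pyruvate carrier, rose by 1.86 ± 0.10, the dehydrogenase phosphatase Pdp2 by 2.33 ± 0.28 and the dehydrogenase kinase Pdk1 by 2.24 ± 0.33. The phosphatase Pdp1 fell, with 0, 3 and 2 counts in regular_diff libraries, against 20, 9 and 9 counts in preadipocyte libraries. In WT_CM against regular_diff 1 of the 9, Mpc2, was called (-0.35 ± 0.10), and that call was lost without regular_diff replicate 5 or 6 or without WT_CM replicate 2 or 3. In KO_CM against regular_diff 5 fell, Pdp2 the most (-2.06 ± 0.33), and 2 rose. Pdp1 was among those that rose (2.63 ± 0.70), on 8, 7 and 3 counts in KO_CM libraries. In KO_CM against WT_CM 6 fell, among them Pdp2 (-1.39 ± 0.34), Mpc2 (-1.02 ± 0.10) and Pdk2 (-0.94 ± 0.20). The 1 that rose was Pdk4, a kinase that shuts the dehydrogenase in fasting. Pdk4 had 62.9, 30.7 and 57.1 CPM in KO_CM libraries, against 32.8, 20.2 and 25.9 CPM in WT_CM libraries. The groups overlapped, and the difference of 0.87 ± 0.24 was not called without KO_CM replicate 1 (adjusted p of 0.0674).

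Of 18 further fatty acid activation and oxidation genes, 10 rose and 3 fell in regular_diff against preadipocyte libraries. Acsl1, which activates fatty acids to acyl-CoA, had 2053, 1854 and 2144 CPM in regular_diff libraries, against 12.01, 42.9 and 11.03 CPM in preadipocyte libraries. Cpt1c, a relative of Cpt1a known from brain, was among the genes that fell. Cpt1c had 14.6, 12.04 and 9.29 CPM in regular_diff libraries, against 45.5, 56.0 and 49.9 CPM in preadipocyte libraries. In KO_CM against regular_diff, 10 of the 18 fell, Acsl1 the most (-2.03 ± 0.33), and 1, Cpt1c, rose (1.39 ± 0.29). In KO_CM against WT_CM, 7 of the 18 fell, with Acsl1 (-1.55 ± 0.32), Acad11 (-1.11 ± 0.19) and the carnitine carrier Slc25a20 (-1.005 ± 0.28) leading, and 1 rose. The call on Slc25a20 was lost after thinning and without WT_CM replicate 1 or KO_CM replicate 1. Counts of Me1 and Slc25a20 are less certain, since 26.2% and 24.8% of their searched 3′ stretches occur in other genes. The gene that rose was Cpt1c, with 44.6, 19.9 and 33.7 CPM in KO_CM libraries, against 8.70, 11.3 and 11.5 CPM in WT_CM libraries, a log2 fold change of 1.59 ± 0.29 with no overlap. In WT_CM against regular_diff 3 of the 18 fell and 1 rose, with Acacb, the acetyl-CoA carboxylase whose product inhibits the Cpt1 enzymes, at -1.12 ± 0.26, a call that was lost after thinning.

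Of 12 tested genes in the list of regulators, not all of which act on transcription, 8 rose and 2 fell in regular_diff against preadipocyte libraries. Pparg, the nuclear receptor of fat cell formation, rose by 4.16 ± 0.13, the coactivator Ppargc1b, with 0 to 3 counts in preadipocyte libraries, by 4.12 ± 0.55, the corepressor Nrip1 by 3.49 ± 0.35 and the oestrogen-related receptor Esrra by 1.41 ± 0.13. Pparg had 221, 245 and 309 CPM in KO_CM libraries, against 770.7, 785 and 743 CPM in WT_CM libraries, a log2 fold change of -1.57 ± 0.12. Nrip1 (-1.21 ± 0.31) and Esrra (-0.41 ± 0.15) also fell in KO_CM against WT_CM, and 9 of the 12 were not called there, so that the share called was near the 27.6% of all tested genes. The call on Nrip1 was lost without KO_CM replicate 2, and that on Esrra under 14 of 22 alternatives. In KO_CM against regular_diff 6 of the 12 fell, Pparg the most (-1.77 ± 0.12), and 1 rose. Only Esrra fell and 1 regulator rose in WT_CM against regular_diff, and 10 were not called. In WT_CM against regular_diff, Esrra had 96.7, 84.9 and 102.5 CPM in WT_CM libraries, against 148, 141 and 150.4 CPM in regular_diff libraries, a log2 fold change of -0.63 ± 0.13 with no overlap. The 3′ end of Esrra overlaps an exon of Trmt112 on the other strand, so its counts are less certain. Tfam and Gabpa, factors of mitochondrial transcription and of nuclear genes for mitochondria, were called in none of the 4 main comparisons. Tfam had 6 to 9 counts in KO_CM and 12 to 21 in the other libraries, so the lack of calls does not show that it was level.

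Promoter windows of 31 of the 35 members could be matched by symbol in RefSeq (GRCm38.p6), each from 250 bases before to 50 after the start. The GC box GGGCGG, searched on both strands like the other motifs, was in 23 of them (74.2%), against 72% of the 7668 tested genes with a window. AAGGTCA was in 2 windows, those of Ogdh and Acadm (6.45%), against 3.59% of tested genes. Its longer form TCAAGGTCA, which contains it, was in 0 of 31 members and 0.3% of tested genes, and the direct repeat 1 element of PPAR receptors, which is AGGTCA repeated after 1 free base and can overlap both, in 0 of 31 and 0.013%. The nuclear respiratory factor 1 site, of 10 bases, was in 1 window, that of Etfdh, against 2.48% of tested genes. The ETS site CCGGAAGT was in 2, those of Dlst and Cpt2, against 10.1% of tested genes. TATAAA was in 0 of 31 members and 8.19% of tested genes.

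In GENCODE vM21 on mm10, the protein-coding genes with the most distinct courses lie on different chromosomes except for one pair. Pcx lies on chromosome 19 from 4510472 to 4621752, and Cpt1a on the same chromosome from 3322334 to 3385733. Idh2 lies on chromosome 7 from 80094846 to 80115392, Idh3a on chromosome 9 from 54586334 to 54604661, and Acadm on chromosome 3 from 153922357 to 153944632. In the authors' deposited table, 32 of the 33 measured members were under an adjusted p of 0.05 in regular_diff against preadipocyte, where 39.6% of its 11035 genes were. In the authors' deposited table the members under that threshold were 16 in WT_CM against regular_diff (6.04% of all genes), 31 in KO_CM against regular_diff (25.4%) and 28 in KO_CM against WT_CM (18.8%).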

How the data were processed

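The 12 libraries of 3T3-L1 cells were grouped by their sample titles into 4 groups of 3, and the members and gene lists were chosen with earlier results of these data known. MARS-seq started from 30 ng of RNA a library, tagged during reverse transcription, per the labels' protocols. The submitters' processing notes name cutadapt, HTSeq, DESeq2 and the build mm10. Tool versions, annotation and strand setting were not given in the sources used here. Used here were deposited UMI counts per gene, which the authors did not normalize, and the adjusted p-values of the authors' deposited table, which were only counted.

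The test was that of edgeR 4.0.16 (R 4.3.3), with TMM scaling, filterByExpr and a robust quasi-likelihood fit of the 12 libraries with 4 group means, two-sided, with Benjamini-Hochberg adjustment over 9519 genes and a threshold of 0.05. The same steps were tested on simulated data. CPM are counts scaled to the TMM-adjusted library size. Group means carry an SD and log2 fold changes of single genes an SE; medians, values of single libraries and most values under alternatives carry neither. Depth limits precision most in the KO_CM libraries and for Decr1, Dlat and Ogdh. All members were named, and those with the largest and smallest change in each role and comparison were given by library. Only some of the called genes of each further list, at most 4 a comparison, were given by value. 1 gene of these further lists is counted but not reported here by name. The last 500 bases of transcripts (GENCODE vM21) were searched in stretches of 31 bases for copies in other genes; over 10% shared is given as uncertain. Alternatives were other scalings, other filters, DESeq2 1.42.0, no robust fit, only the 6 libraries compared, thinning, a replicate block, and left-out libraries. Figures were drawn with matplotlib 3.10.9 in Python 3.11.15.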

Additional observations from a re-analysis of the deposited data

How the results depend on the processing

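Over up to 22 alternatives a comparison, the number of members called stayed within 1.5 times the reported one in every comparison except WT_CM against regular_diff, where leaving out each library in turn gave 11 to 22 members against 20 (24 without preadipocyte replicate 5 and KO_CM replicate 1). The low value came without WT_CM replicate 3. Over all genes, that comparison gave 943 calls, 1480.0 with only the 6 libraries compared, 506 with all libraries thinned to the smallest total, 1445 without preadipocyte replicate 5 and KO_CM replicate 1, and 595 to 1171 with each library left out. The low values, 595 and 621, came without regular_diff replicates 4 and 6. In the other comparisons the count over all genes stayed within 1.5 times. Of the called members, 30 of 31 were called under every alternative in regular_diff against preadipocyte, 10 of 20 in WT_CM against regular_diff, 30 of 30 in KO_CM against regular_diff, 27 of 28 in KO_CM against WT_CM, 20 of 22 in KO_CM against preadipocyte and 29 of 31 in WT_CM against preadipocyte, where Dlat and Idh2 were lost under some. Scaling by library size moved the median of all genes in regular_diff against preadipocyte to -0.22, against -0.06.

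Signs turned only for values near 0 that were not called either way. In WT_CM against regular_diff these were Decr1 (0.023 and 0.044, without regular_diff replicate 4 and WT_CM replicate 2), Eci2 (0.0046 after thinning), Idh2 (0.00099 by library size; 0.057, 0.0016 and 0.037 without regular_diff replicate 6, WT_CM replicate 2 and WT_CM replicate 3, with a low of -0.089 without WT_CM replicate 1) and the log2 ratio of Idh3b to Idh3a (0.0042 and 0.026 without regular_diff replicate 5 and WT_CM replicate 2, with a low of -0.092 without WT_CM replicate 3). In KO_CM against preadipocyte they were Eci2 (0.0060 with no filter, 0.051 after thinning, 0.14 without preadipocyte replicate 5 and KO_CM replicate 1, 0.17 without preadipocyte replicate 6, 0.32 without KO_CM replicate 1, with a low of -0.26 without KO_CM replicate 3) and Pdha1 (-0.045 by library size, -0.0043 without preadipocyte replicate 6, -0.13 without KO_CM replicate 2, with a high of 0.20 without preadipocyte replicate 5 and KO_CM replicate 1). The cause was not tested.

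Whether replicate numbers pair the samples is not stated in the labels. Deviations of same-numbered libraries correlated at -0.010, 0.121 and 0.065 in regular_diff against preadipocyte, and at -0.041, 0.036 and -0.054 in KO_CM against WT_CM. Not every library correlated best with its own number. With 3 libraries a group, these values cannot show that pairing is absent. With the replicate block, 31 and 28 members were called in these comparisons, as without it, and the call on Acsl1 in KO_CM against WT_CM was lost (adjusted p of 0.0573 in edgeR). The block could not be fitted in the other comparisons, whose groups share no numbers.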
